A study of Homo sapiens with 6 samples.

Results

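Microexons are exons so short that they add only a few amino acids to a protein. Here a microexon is a skipped exon, that is an exon that lies between an upstream and a downstream exon and can be spliced in or left out, with a length of at most 30 nt. By this rule, applied to the length of the middle exon alone, 1135 microexons in 950 genes were found among 40658 skipped exons. They came from 1271 of 47986 deposited events. An event is a set of 3 exons, and where several events shared the middle exon the one with the most reads was kept.

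The study silenced SNRPA1, whose product is a protein of U2, a small nuclear ribonucleoprotein (snRNP) of the spliceosome, or SNRPB, which encodes the SmB and SmB' proteins of the ring shared by most spliceosomal snRNPs, in MDA-LM2 cells. MDA-LM2 is a highly lung-metastatic derivative of the human breast cancer line MDA-MB-231. The siCtrl pool (2 libraries, control siRNA), the siSNRPA1 pool (3 libraries, siRNA against SNRPA1) and the siSNRPB pool (1 library, siRNA against SNRPB) all came from this line, transfected with Lipofectamine, with total RNA taken at 48 h and sequenced as stranded total RNA libraries. The design calls the controls mock-transfected. Each group has 1 deposited summary and is called a pool here, and the way its libraries were combined is not stated, so no difference below has a replicate check. The libraries are numbered in the labels, with no word on whether each is a culture of its own, and the labels tie no library to 1 of the siRNAs that the design names for each target. The design names SNRPB2 in 1 place, where the labels say SNRPB.

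Microexons are best known from neurons, where the splicing factor SRRM4 acts on many of them and where they tend to keep the reading frame and to alter protein surfaces that bind partners. Very short exons leave little room for splicing enhancers and for factors bound at both of their ends, so their inclusion depends strongly on the sequences of the neighbouring introns. U2 snRNP binds the branch point upstream of each exon, and the Sm ring is part of the U1, U2, U4 and U5 snRNPs.

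The microexons with the largest differences between pools show how short the spliced-in pieces are, which is why the sequences are given before the values. In each line the microexon is in capitals and the last 15 bases of the upstream exon and the first 15 bases of the downstream exon are in lower case, 5' to 3' on the RNA's strand, as spliced in a GENCODE 29 transcript on GRCh38 (hg38). All of the exons shown are coding. The first set holds exons that passed the test between siSNRPA1 and siCtrl.
ITPK1, 25 nt, chr14:93076595-93076619, minus strand: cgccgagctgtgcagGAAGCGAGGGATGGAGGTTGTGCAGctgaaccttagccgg
SUPT5H, 12 nt, chr19:39458294-39458305, plus strand: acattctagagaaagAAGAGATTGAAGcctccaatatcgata
AP1B1, 9 nt, chr22:29329712-29329720, minus strand: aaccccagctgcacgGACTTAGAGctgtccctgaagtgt
RPP30, 30 nt, chr10:90895454-90895483, plus strand: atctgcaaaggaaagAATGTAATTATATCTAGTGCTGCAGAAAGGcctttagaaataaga
FIP1L1, 27 nt, chr4:53440582-53440608, plus strand: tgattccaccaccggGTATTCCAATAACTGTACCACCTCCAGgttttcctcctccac
PICALM, 24 nt, chr11:85978070-85978093, minus strand: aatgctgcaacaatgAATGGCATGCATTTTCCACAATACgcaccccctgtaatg
PHYHD1, 22 nt, chr9:128937757-128937778, plus strand: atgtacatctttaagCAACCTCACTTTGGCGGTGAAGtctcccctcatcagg

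The second set holds exons that passed between siSNRPB and siCtrl, with ROBO1, which passed only between siSNRPA1 and siSNRPB. The insertion is 21 nt in MEF2D and 27 nt in MAX, and both known isoform choices are described below.
MRPL42, 20 nt, chr12:93470486-93470505, plus strand: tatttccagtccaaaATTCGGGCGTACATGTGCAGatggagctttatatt
MAX, 27 nt, chr14:65101546-65101572, minus strand: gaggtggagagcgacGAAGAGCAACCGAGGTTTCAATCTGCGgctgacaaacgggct
PPP3CB, 30 nt, chr10:73439872-73439901, minus strand: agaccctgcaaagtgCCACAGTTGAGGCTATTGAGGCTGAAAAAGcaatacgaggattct
DST, 18 nt, chr6:56468982-56468999, minus strand: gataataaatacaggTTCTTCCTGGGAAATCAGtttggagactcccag
SFXN4, 27 nt, chr10:119161055-119161081, minus strand: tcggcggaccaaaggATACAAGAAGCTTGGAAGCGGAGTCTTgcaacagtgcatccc
MAPK7, 18 nt, chr17:19380484-19380501, plus strand: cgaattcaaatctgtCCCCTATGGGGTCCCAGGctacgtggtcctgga
USO1, 21 nt, chr4:75795336-75795356, plus strand: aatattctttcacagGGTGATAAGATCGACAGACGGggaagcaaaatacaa
MEF2D, 21 nt, chr1:156476494-156476514, minus strand: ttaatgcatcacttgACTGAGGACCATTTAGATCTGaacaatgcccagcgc
ROBO1, 27 nt, chr3:78647629-78647655, minus strand: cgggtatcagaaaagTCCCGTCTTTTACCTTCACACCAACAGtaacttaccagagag

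Among the 1135 microexons the lengths were uneven. A length that is a multiple of 3 was found for 790 of them, or 69.6%, against 46.9% of exons of 31 to 60 nt and 39.3% of exons over 60 nt. The commonest lengths were 27 nt with 138 exons, 30 nt with 117 and 24 nt with 111, and the shortest exon had 1 nt. The annotation places 820 microexons, or 72.2%, wholly in coding sequence, against 54.7% of exons of 31 to 60 nt and 47.0% of those over 60 nt. Of the coding microexons 78.3% had a length that keeps the reading frame, against 57.5% and 46.9% in the longer classes. A further 121 microexons lie in noncoding transcripts, 77 in a 5' UTR, 51 are partly coding, 13 lie in a 3' UTR and 53 match no annotated exon. Base composition differed less between the classes: the median GC content was 46.7% in microexons, 46.2% in exons of 31 to 60 nt and 49.5% in all exons over 30 nt. The introns around microexons had medians of 1912 nt upstream and 1873 nt downstream, against 2360 nt and 2255 nt for all exons over 30 nt.

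**Figure D1:**
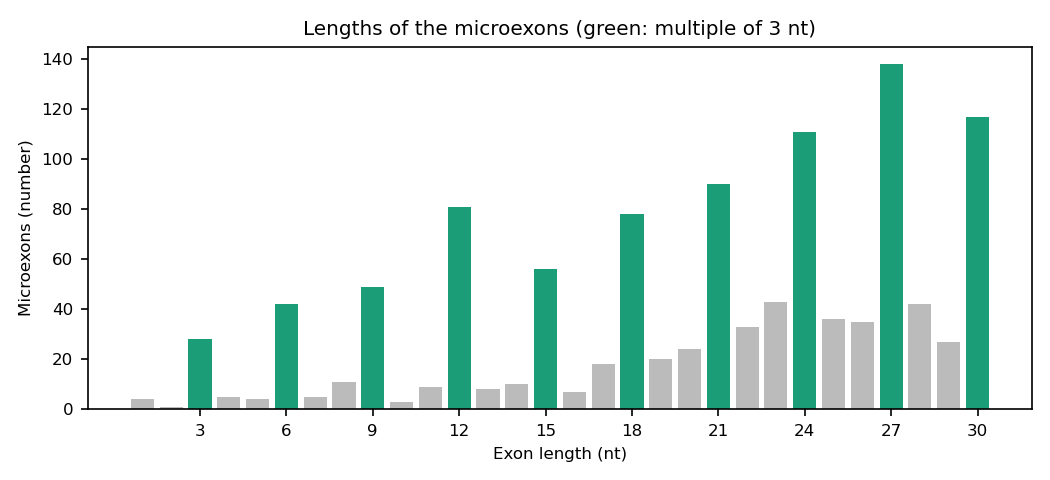
Number of microexons (vertical axis) at each exon length in nt (horizontal axis); green bars are lengths that are a multiple of 3 and grey bars are the other lengths. The green bars stand above their neighbours at every multiple of 3, up to 138 exons at 27 nt.

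Reads that tell the 2 forms apart are called informative here: an inclusion read fits only the form with the exon, and an exclusion read fits only the form without it. The pools held 5201371 informative reads in siCtrl, 7155107 in siSNRPA1 and 3116325 in siSNRPB, and microexons took 1.02%, 1.06% and 1.01% of them. Over skipped exons, reads of the targeted genes, per 1000000 reads that fit at least 1 form of a skipped exon, were 118 in siCtrl, 21.9 in siSNRPA1 and 272 in siSNRPB for SNRPA1, and 247, 337 and 30.6 for SNRPB, each lowest in its own knockdown. CD44 and AXL, expressed by this line, had 3270, 3430 and 3540 such reads and 137, 103 and 77.8 in the same order. CDH1, ESR1 and PGR, known to be low in this line, had between 0 and 2.75.

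Most microexons were thinly covered. The summaries of siCtrl, siSNRPA1 and siSNRPB listed 1092, 1076 and 889 of the microexons. The median listed microexon had 5 informative reads in siCtrl, 8 in siSNRPA1 and 5 in siSNRPB, against 18, 23 and 15 for longer listed exons. Of the 1135 microexons, 359 had 0 informative reads in every pool and 250 had at least 20 in every pool. The other 526 had some reads but fewer than 20 in at least 1 pool.

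By the aligned reads, microexons were mostly skipped in MDA-LM2 cells. The authors' inclusion level is MISO's posterior mean, an estimate from 0 (always skipped) to 1 (always included). Among microexons with at least 20 informative reads its median was 0.03 in each of the 3 pools, whereas exons over 30 nt had medians of 0.83, 0.74 and 0.83. In siCtrl 231 of 353 microexons, or 65.4%, had a level of at most 0.1, and 44, or 12.5%, had a level of at least 0.9. The matching shares for exons over 30 nt were 19.8% and 43.4%. Low levels were most frequent in the shortest microexons. A level of at most 0.1 was seen for 89.3% of the 84 exons of 1 to 15 nt. It was seen for 58.0% of the 269 exons of 16 to 30 nt. How completely reads across such short exons were aligned was not examined, so its part in these low levels was not tested. Coding exons that keep the frame had a level of at least 0.9 in 9.95% of 211 cases, and coding exons that shift it in 33.9% of 59.

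Of the 250 microexons with at least 20 informative reads in every pool, 121, or 48.4%, had 0 inclusion reads in all 3 pools, 14 had 0 exclusion reads in all 3, and 115 had both kinds in at least 1 pool. The 9 nt exon of PSAP, the precursor of the saposins that help lysosomes break down sphingolipids (chr10:71823888-71823896), was the most deeply covered of the skipped ones. It had 0 inclusion reads of 1115 in siCtrl, of 1916 in siSNRPA1 and of 730 in siSNRPB, which allows an inclusion share of up to 0.269%, 0.157% and 0.411% of reads. NRBP1, a pseudokinase gene, has a 24 nt exon with 0 inclusion reads of 688, 1093 and 616 in the same order, which allows up to 0.436%, 0.274% and 0.487%. The 30 nt exon of DNM2, whose product dynamin pinches off endocytic vesicles, had 0 inclusion reads of 305, 450 and 295, which allows up to 0.984%, 0.667% and 1.02%. All these limits, and the 95% intervals below, cover counting error only, because reads from amplified libraries are not independent molecules. They also leave out any reads across very short exons that failed to align.

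Microexons were also grouped by lists of genes, among them a list of genes known for neuronal microexons. That list covered 83 microexons in 48 genes, of which 26 in 21 genes had at least 20 informative reads in every pool. Of these 26, 15 had no inclusion read in any pool, which is 57.7% against 48.4% of all 250, and 0 were free of exclusion reads. Other groups had similar shares without inclusion reads. They were 56.2% for endocytosis and vesicle trafficking, 55.6% for transcription and chromatin, and 52.6% for cytoskeleton, adhesion and motility. They were 45.5% for kinases, phosphatases and signalling adaptors and 51.0% for genes in none of the functional lists. The 12 nt exon of KDM1A, the histone demethylase LSD1 whose neuronal form carries a microexon, had 0 inclusion reads of 196 in siCtrl, 285 in siSNRPA1 and 125 in siSNRPB, which allows up to 1.53%, 1.05% and 2.4%. The 18 nt exon of SRC, a tyrosine kinase with a neuronal splice form, had 0 of 49, 42 and 42, which allows up to 6.12%, 7.14% and 7.14%. The list's other microexons without inclusion reads lie in PTPRF, PTPRS, PTPRK, MACF1, APBB2, ASAP1, ASAP2, ENAH, CLASP2 and DNM2. The 18 microexons at this depth in RNA-binding, splicing and translation genes were the least often skipped of the lists, with 2 that had no inclusion read and 3 that had no exclusion read. Several of the 18 are overlapping forms of RPS24 and share reads.

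PCBP2, a poly(C)-binding RNA-binding protein, has the most deeply covered microexon without exclusion reads, of 24 nt (chr12:53455347-53455370, coding). It had 2624 inclusion reads in siCtrl, 4140 in siSNRPA1 and 1574 in siSNRPB, with a level of 1.00 in each pool, and the 0 exclusion reads allow a share of up to 0.114%, 0.0725% and 0.191%. The 9 nt exon of NUDT5, a Nudix hydrolase of ADP-ribose, was the only exon under 16 nt in this class, with 149, 183 and 45 inclusion reads and levels of 0.98, 0.99 and 0.93. The 27 nt exon of RAB11A, a GTPase of recycling endosomes, had 77, 168 and 65 inclusion reads and levels of 0.98, 0.99 and 0.98. The lack of exclusion reads in every pool is what placed these exons in this class, so it is no separate result.

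Whether the authors' level follows the informative reads matters for reading the levels. In siCtrl the share of inclusion reads exceeded the level by at least 0.2 for 19 of 353 microexons, or 5.38%. For exons over 30 nt share and level differed by at least 0.2, in either direction, in 25.2%. RPL18, a large-subunit ribosomal protein gene with many processed copies, has a 29 nt exon with 821 inclusion reads against 0 exclusion reads in siCtrl but a level of 0.45. FLNA, which encodes the actin crosslinker filamin A, had a share of 91.9% and a level of 0.48. These 19 exons had a median of 18.9 reads that fit both forms per informative read, against 3.34 for the other microexons. The part of these reads in the gap was not tested. For this reason an exon counts as changed here only where the level and the informative reads moved the same way.

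**Figure D2:**
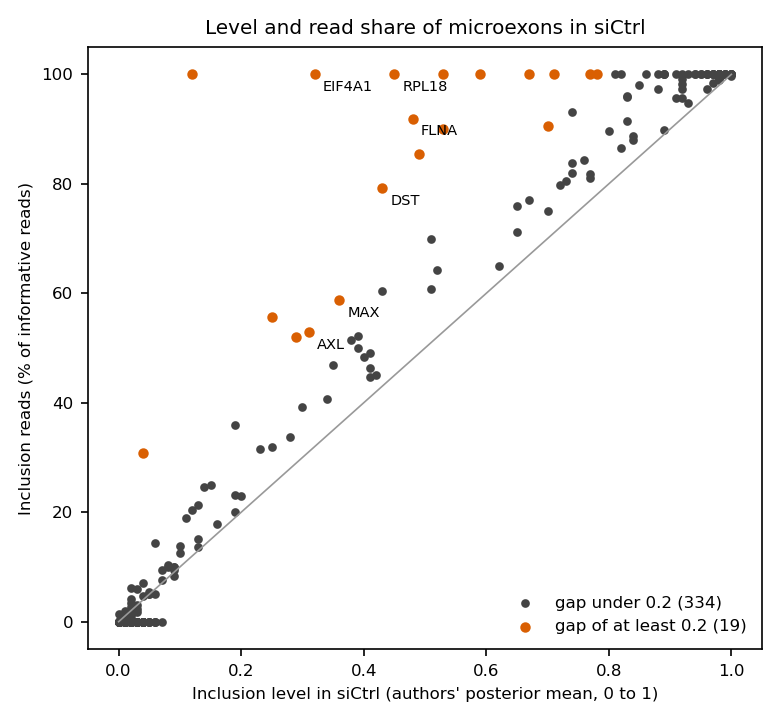
Share of inclusion reads among informative reads in % (vertical axis) against the authors' inclusion level (horizontal axis) for the 353 microexons with at least 20 informative reads in siCtrl; each point is 1 exon, the line marks equal values, and orange points differ by at least 0.2. The 19 orange points lie above the line, among them RPL18 at a level of 0.45 with only inclusion reads.

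The comparison of siSNRPA1 with siCtrl asks which exons change when a U2 snRNP protein is depleted. Microexons mostly moved toward skipping: 20 fell and 3 rose. The largest fall in level was in ITPK1, an inositol phosphate kinase, from 0.95 to 0.49. This fall did not pass with read counts divided by 2. The largest rise in level was in PICALM, a clathrin assembly protein, from 0.41 to 0.74. That rise did not pass with thinned reads or with read counts divided by 2. The 20 exons that fell were mostly used in control cells, with a median level of 0.845 in siCtrl and 0.61 in siSNRPA1, and a level of at least 0.5 in siCtrl in 17 of them. Of the 20, 15 were coding and 12 had a length that is a multiple of 3. Of the 108 microexons that could be tested, 87 were coding. Among coding exons, 11 of the 15 that fell keep the frame, against 66 of the 87 tested.

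An exon was said to have risen or fallen if its inclusion and exclusion reads differed between the 2 pools by a two-sided Fisher's exact test at an adjusted p under 0.05 (Benjamini-Hochberg over all tested exons of any length) and its level differed by at least 0.1 in the same direction. An exon could be tested where each pool had 20 or more informative reads and both pools together 5 or more of each kind. The test sets the reads of 2 pools against each other and says nothing of the spread between cultures. Of the microexons 108 could be tested. The 20 that fell are 18.5% of them and the 3 that rose are 2.78%, against 12.8% and 4.18% of all 6459 tested exons. The median difference in level was -0.03 for microexons and -0.02 for all tested exons. Exons of 31 to 60 nt fell in 22.5% and rose in 4.08% of 564 cases, so the share that fell in microexons lies between theirs and the background.

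Of 49 tested microexons with a siCtrl level of at least 0.5, 17, or 34.7%, fell. Of 59 with a lower level 3 fell, but 26 of these started under 0.1 and by the rule could not fall, so the 3 are 9.09% of the other 33. The matching shares were 34.5% and 18.6% for exons of 31 to 60 nt, and 21.1% and 14.5% for all exons over 30 nt. The difference between these shares was not tested.

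In ITPK1 the 25 nt exon, whose length shifts the frame, had 61 inclusion reads against 0 exclusion reads in siCtrl, 40 and 12 in siSNRPA1, and 46 and 1 in siSNRPB. The levels were 0.95 (authors' interval 0.85 to 1.00), 0.49 (0.37 to 0.64) and 0.85 (0.68 to 0.97). The siSNRPA1 interval lies below both others, and the fall had an adjusted p of 5.14e-04 by Fisher's exact test. The same exon was also lower in siSNRPA1 than in siSNRPB, with an adjusted p of 0.0119 by the exact test.

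SUPT5H encodes a subunit of the elongation factor DSIF, and its 12 nt exon keeps the frame. It had 79 inclusion reads against 10 exclusion reads in siCtrl, 40 and 35 in siSNRPA1, and 46 and 1 in siSNRPB, with levels of 0.84 (0.75 to 0.92), 0.47 (0.36 to 0.59) and 0.94 (0.86 to 0.99). Again only the siSNRPA1 interval stands apart, and it is the lowest. The adjusted p of the exact test was 1.21e-05 against siCtrl and 1.30e-06 against siSNRPB, the latter with a difference of -0.47, which was the largest between these 2 pools.

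The endocytosis and vesicle trafficking list held 52 microexons of 42 genes, of which 7 were tested, with 3 that fell and 1 that rose. AP1B1, the beta subunit of the AP-1 clathrin adaptor, has a 9 nt exon with 24 inclusion reads against 13 exclusion reads in siCtrl, 13 and 47 in siSNRPA1, and 7 and 29 in siSNRPB. Its levels were 0.62 (0.48 to 0.76), 0.20 (0.11 to 0.31) and 0.19 (0.09 to 0.33), so both knockdown pools were low and overlapped. The fall in siSNRPA1 had an adjusted p of 4.29e-04 by the exact test. GOLGA4, a golgin that tethers vesicles at the trans-Golgi, fell at its 21 nt exon (chr3:37337143-37337163) from 0.73 to 0.56, with 99 inclusion reads against 24 exclusion reads in siCtrl and 147 and 86 in siSNRPA1. SNX14, a sorting nexin, fell at its 27 nt exon (chr6:85538838-85538864) from 0.28 to 0.11, with 57 and 112 reads against 27 and 162. The exons of AP2M1, CLTC and TRAPPC9 did not pass.

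PICALM, in the same list, was the exon that rose. Its 24 nt exon had 26 inclusion reads against 27 exclusion reads in siCtrl, 36 and 7 in siSNRPA1, and 9 and 0 in siSNRPB, which is too few to test. The levels were 0.41 (0.30 to 0.54), 0.74 (0.59 to 0.86) and 0.80 (0.49 to 0.98), and the rise in siSNRPA1 had an adjusted p of 0.00381 by the exact test. The other microexons that rose were in PHYHD1, a dioxygenase, from 0.65 to 0.90, and in SENP6, a SUMO protease, from 0.10 to 0.28. Both overlap another skipped form of the same exon. The 18 nt exon of SENP6 that rose had 3 inclusion reads against 21 exclusion reads in siCtrl, and 12 and 13 in siSNRPA1. A 21 nt form that ends at the same base shares its exclusion reads. The level of that form went from 0.15 to 0.19 and did not pass.

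RPP30, a protein subunit of RNase P and RNase MRP, has a 30 nt exon with 54 inclusion reads against 1 exclusion reads in siCtrl, 69 and 21 in siSNRPA1, and 18 and 2 in siSNRPB, with levels of 0.92, 0.65 and 0.76. FIP1L1, a factor of the cleavage and polyadenylation complex, has a 27 nt exon with 56 and 60 reads in siCtrl, 40 and 115 in siSNRPA1, and 15 and 66 in siSNRPB, with levels of 0.40, 0.20 and 0.15. DPH7, which acts in the synthesis of diphthamide on elongation factor 2, fell from 0.84 to 0.47 at a 27 nt exon that the annotation places in a noncoding transcript (chr9:137577577-137577603). Its siSNRPB pool had 8 informative reads. SNRPG encodes SmG, a member of the same ring as SmB, and its 23 nt exon (chr2:70289350-70289372) fell from 0.74 to 0.58, with 247 inclusion reads against 18 exclusion reads in siCtrl and 356 and 83 in siSNRPA1. SNRPG has near-identical copies in the genome, so its reads are less certain. SNRPG held the 1 that fell of 10 tested exons in the list of RNA-binding, splicing and translation genes, none of which rose. Several of the 10 are overlapping forms of RPS24 that share reads, and the list does not hold RPP30 or FIP1L1.

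Several microexons close to full inclusion in control cells gained exclusion reads in siSNRPA1. PTS, an enzyme of tetrahydrobiopterin synthesis, has a 23 nt exon that went from 245 inclusion reads against 4 exclusion reads to 165 and 36, with a level of 0.97 (0.95 to 0.99) in siCtrl, 0.76 (0.69 to 0.83) in siSNRPA1 and 0.90 (0.82 to 0.95) in siSNRPB. UGGT1, the sensor of glycoprotein folding in the endoplasmic reticulum, has a 24 nt exon that went from 87 and 0 reads to 70 and 17, with levels of 0.98 and 0.76. IL18, an inflammatory cytokine, has a 12 nt exon that went from 115 and 1 reads to 206 and 47, with levels of 0.98 and 0.79. Its siSNRPB level was 0.97, with 84 and 1 reads. PLAU, which encodes urokinase plasminogen activator, has a 28 nt exon that went from 447 and 12 reads to 465 and 66, with levels of 0.96 and 0.81, and 0.92 in siSNRPB. The exons of IL18 and PLAU overlap a gene on the other strand.

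The adjusted p of these 4 falls by the exact test was 5.03e-08 for PTS, 1.16e-04 for UGGT1, 4.40e-06 for IL18 and 1.22e-07 for PLAU. More broadly, 46 microexons had 0 exclusion reads in siCtrl and at least 20 informative reads in siCtrl and siSNRPA1. Of these, 24, or 52.2%, had exclusion reads in siSNRPA1, with a median share of 5.62% and a highest share of 23.1%, the one in ITPK1. For exons over 30 nt the same was seen in 21.9% of 9964. In siSNRPB 3 of 34 such microexons, or 8.82%, had exclusion reads, against 12.6% of 7932 longer exons. The depth moved along with this, since the 46 exons had medians of 62.0 informative reads in siCtrl and 99.5 in siSNRPA1, and its part was not tested. In the other direction, 14 of 179 microexons with 0 inclusion reads in siCtrl, or 7.82%, had any in siSNRPA1, with a highest share of 3.85%, against 40.6% of 1097 exons over 30 nt. In siSNRPB 6 of 137 such microexons, or 4.38%, had inclusion reads, with a highest share of 10.0%, against 16.7% of 789 longer exons.

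The remaining falls were in MAPK1IP1L, a small proline-rich protein, PLSCR1, a phospholipid scramblase, GAS5, a host gene of small nucleolar RNAs, MTCH2, a mitochondrial outer membrane protein, CLASP1, which binds microtubule plus ends, GRAMD1A, a cholesterol transfer protein, and JPT1. MAPK1IP1L had the smallest p among the microexons in this comparison: its partly coding 22 nt exon (chr14:55061680-55061701) had 144 inclusion reads against 15 exclusion reads in siCtrl and 153 and 98 in siSNRPA1, with levels of 0.70 and 0.38 and an adjusted p of 8.67e-10 by the exact test. PLSCR1 went from 0.85 to 0.64, GAS5 from 0.91 to 0.67, MTCH2 from 0.80 to 0.64, CLASP1 from 0.20 to 0.05, and GRAMD1A and JPT1 each from 0.99 to 0.89. The JPT1 exon, of 23 nt, matches no annotated exon. It overlaps an annotated 19 nt form with the same 0 exclusion reads in siCtrl and 13 in siSNRPA1 but with 587 and 622 inclusion reads, whose level went from 1.00 to 0.98 and did not pass.

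The other lists can be read against the 17.0% of all tested exons that passed in either direction between siSNRPA1 and siCtrl. Of 14 tested microexons in the list of cytoskeleton, adhesion and motility genes 1 fell (CLASP1). Of 12 in the list of kinases, phosphatases and signalling adaptors 1 fell (MAPK1IP1L, which is not itself a kinase). Of 2 in the transcription and chromatin list 0 passed. Of 9 tested microexons in the neural list 1 fell (CLASP1) and 1 rose (PICALM). The 63 tested microexons of genes in none of the functional lists held 14 falls and 2 rises. Among these falls are ITPK1, a kinase, and SUPT5H, a subunit of an elongation factor. The counts by list therefore do not cover every gene of their kind.

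Some of these calls depend on how inclusion is measured. GRAMD1A, JPT1 and PLAU fell by at least 0.1 in level but not in the share of inclusion reads, and the authors' Bayes factor was under 10 for GAS5, GRAMD1A, MTCH2, PLSCR1, RPP30 and SENP6. With the deeper pools thinned to the reads of the smallest, 12 microexons fell and 1 rose, and with every read count divided by 2, 8 fell and 0 rose.

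The comparison of siSNRPB with siCtrl asks the same of an Sm ring protein. Here microexons moved in both directions: 9 fell and 8 rose. The largest fall was in MRPL42, a mitochondrial ribosomal protein, from 0.52 to 0.03, and the largest rise was in DST, a plakin that links cytoskeletal filaments, from 0.43 to 0.81, a rise that did not pass by the authors' Bayes factor. Of the 8 that rose, 7 had a siCtrl level under 0.5, and their median level was 0.145 in siCtrl and 0.405 in siSNRPB. All 7 coding exons among the 8 keep the frame. So do 6 of the 7 coding exons that fell and 41 of the 50 coding microexons tested.

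Of the 62 microexons tested, the 9 that fell are 14.5% and the 8 that rose 12.9%, against 16.7% and 4.62% of all 4244 tested exons. The median difference was -0.01 for both. Exons of 31 to 60 nt fell in 18.1% and rose in 6.13% of 375 cases. Among tested exons with a siCtrl level under 0.5, 7 of 37 microexons, or 18.9%, rose, against 9.57% of exons of 31 to 60 nt and 5.38% of all exons over 30 nt. Among those with a level of at least 0.5, 4 of 25 microexons fell, against 26.7% and 28.7% of the longer exons in the same order. These shares are descriptions of few exons, and the difference between them was not tested.

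MAPK7, the kinase also called ERK5, rose at an 18 nt exon that keeps the frame. It had 26 inclusion reads against 104 exclusion reads in siCtrl, 62 and 145 in siSNRPA1, and 35 and 31 in siSNRPB, with levels of 0.19 (0.13 to 0.26), 0.28 (0.23 to 0.34) and 0.52 (0.40 to 0.64). The siSNRPB interval lies above both others, and the rise had an adjusted p of 5.19e-05 by the exact test.

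MTMR1, a myotubularin-related phosphatase of phosphoinositides, has the best covered of the exons that rose, of 24 nt (chrX:150712342-150712365). It had 75 inclusion reads against 421 exclusion reads in siCtrl, 119 and 529 in siSNRPA1, and 139 and 288 in siSNRPB, with levels of 0.13 (0.10 to 0.16), 0.16 (0.13 to 0.18) and 0.29 (0.25 to 0.33). The adjusted p of the rise was 2.20e-08 by the exact test, and it was the smallest among the rises.

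SPTAN1, which encodes the alpha chain of nonerythroid spectrin under the plasma membrane, has a 15 nt exon (chr9:128609651-128609665) with 3 inclusion reads against 135 exclusion reads in siCtrl, 7 and 208 in siSNRPA1, and 19 and 77 in siSNRPB. The share of inclusion reads was 2.17% (95% Wilson interval 0.742 to 6.2%), 3.26% (1.59 to 6.57%) and 19.8% (13.1 to 28.9%). MEF2D, a MADS box transcription factor, rose at the 21 nt exon known as the beta exon of MEF2 genes, which skeletal muscle and brain include. It had 2 inclusion reads against 19 exclusion reads in siCtrl, 1 and 75 in siSNRPA1, and 22 and 30 in siSNRPB, with levels of 0.07, 0.01 and 0.26. In both genes the siSNRPB pool alone was high, and siCtrl and siSNRPA1 overlapped.

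DST had 42 inclusion reads against 11 exclusion reads at its 18 nt exon in siCtrl, 53 and 25 in siSNRPA1, and 30 and 0 in siSNRPB, with levels of 0.43 (0.32 to 0.56), 0.35 (0.27 to 0.44) and 0.81 (0.57 to 0.99). By share of reads the same exon stood at 79.2% in siCtrl and 67.9% in siSNRPA1, with no exclusion read in siSNRPB, so the size of its rise depends on the measure. USO1, the vesicle tether p115 of the early secretory pathway, rose at a 21 nt exon from 0.16 in siCtrl (10 and 46 reads) to 0.42 in siSNRPB (16 and 19 reads), with 0.14 in siSNRPA1 (18 and 103 reads). SFXN4, a mitochondrial sideroflexin, rose at a 27 nt exon from 0.10 (4 and 25 reads) to 0.39 (12 and 12 reads), with 0.01 in siSNRPA1 (0 and 77 reads). USB1, the exonuclease that trims the end of U6 snRNA, rose at a 22 nt exon, annotated in a noncoding transcript, from 0.76 (38 and 7 reads) to 0.96 (40 and 0 reads).

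Among the microexons that fell in siSNRPB, the 20 nt exon of MRPL42 had 18 inclusion reads against 10 exclusion reads in siCtrl, 20 and 29 in siSNRPA1, and 0 and 27 in siSNRPB. Its levels were 0.52 (0.34 to 0.69), 0.29 (0.18 to 0.41) and 0.03 (0.00 to 0.12), and the fall in siSNRPB had an adjusted p of 2.84e-06 by the exact test. The siSNRPA1 level lies between the others and did not pass against siCtrl, with an adjusted p of 0.132 by the exact test. The exon overlaps another skipped form.

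MAX, the dimerization partner of MYC, has a 27 nt exon that distinguishes its long and short isoforms. It had 54 inclusion reads against 38 exclusion reads in siCtrl, 84 and 81 in siSNRPA1, and 9 and 58 in siSNRPB, with levels of 0.36 (0.27 to 0.45), 0.33 (0.27 to 0.39) and 0.08 (0.04 to 0.14). The siCtrl and siSNRPA1 intervals overlap and the siSNRPB interval is below both, with an adjusted p of 1.60e-07 by the exact test. PPP3CB, a catalytic subunit of the phosphatase calcineurin, fell at a 30 nt exon from 0.35 (15 and 17 reads) to 0.12 (3 and 18 reads), while siSNRPA1 stood at 0.47 (26 and 15 reads). With few reads its adjusted p was 0.0494 by the exact test, and it did not pass with a minimum of 10 informative reads, with thinned reads or by the authors' Bayes factor.

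RPS24, a small-subunit ribosomal protein, has a 22 nt exon in the annotated 3' UTR (chr10:78040204-78040225) with 773 inclusion reads against 1642 exclusion reads in siCtrl, 1095 and 2422 in siSNRPA1, and 202 and 920 in siSNRPB. The levels were 0.25 (0.24 to 0.27), 0.24 (0.23 to 0.26) and 0.13 (0.12 to 0.15), and the adjusted p of the fall in siSNRPB was 2.48e-16 by the exact test. A 25 nt form that ends at the same base shares its exclusion reads and had 58, 63 and 6 inclusion reads, with levels of 0.02, 0.02 and 0.01. RPS24 has processed copies in the genome, and its short forms overlap, so their reads are not separate observations.

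The other falls in siSNRPB were in AXL, a receptor tyrosine kinase, and ANXA6, a membrane-binding annexin, and in AP1B1, FIP1L1 and MAPK1IP1L. AXL had 147 inclusion reads against 131 exclusion reads at its 27 nt exon (chr19:41239694-41239720) in siCtrl, 113 and 103 in siSNRPA1, and 28 and 54 in siSNRPB, with levels of 0.31, 0.25 and 0.17. ANXA6 had 279 and 93 reads at its 18 nt exon (chr5:151110627-151110644), 309 and 131, and 167 and 104, with levels of 0.70, 0.66 and 0.56. MAPK1IP1L went from 0.70 to 0.45, with 85 inclusion reads against 49 exclusion reads in siSNRPB.

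Between siSNRPB and siCtrl 21.3% of all tested exons passed in either direction. By list, 1 of 5 tested endocytosis microexons fell (AP1B1) and 0 rose in siSNRPB, and 2 of 8 in cytoskeleton genes rose (DST and SPTAN1) and 0 fell. Of 7 in the list of kinases, phosphatases and adaptors 2 fell (MAPK1IP1L and PPP3CB) and 1 rose (MAPK7). The 1 tested in the transcription and chromatin list, MEF2D, rose, while MAX, which is in none of the lists, fell. Of 8 in the list of RNA-binding, splicing and translation genes, several of them overlapping forms of RPS24, 1 fell (RPS24). Of 5 in the neural list 2 rose (DST and MEF2D) and 0 fell. The 33 tested in other genes held 5 falls and 4 rises. Among them AXL fell and MTMR1 and USO1 rose, although their descriptions above match the theme of a list. The counts by list therefore do not cover every gene of their kind. The siSNRPB pool is 1 library with the fewest reads. With a minimum of 50 informative reads, or with read counts divided by 2, 3 exons rose, and by the authors' Bayes factor or with thinned reads 5 rose. The rises of DST, MEF2D and USB1 had a Bayes factor under 10 in the authors' deposited table (6.59, 9.54 and 4.12), and that of USO1 did not pass with thinned reads.

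**Figure D3:**
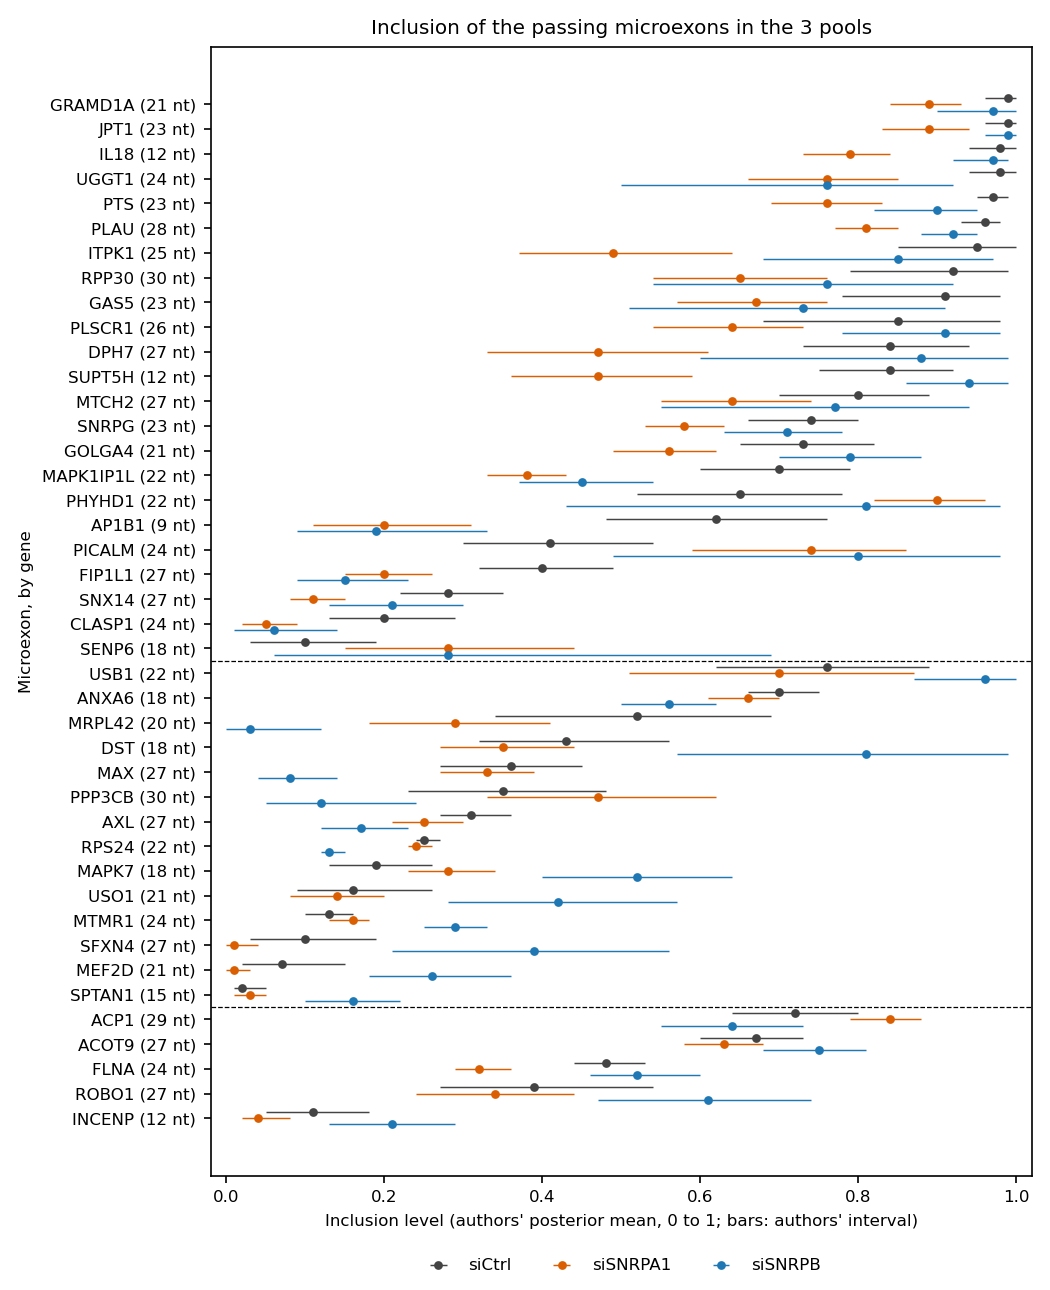
Authors' inclusion level, from 0 to 1 (horizontal axis), in siCtrl (grey), siSNRPA1 (orange) and siSNRPB (blue) for the 42 microexons that passed in at least 1 comparison; bars are the authors' intervals, and dashed lines separate exons that passed between siSNRPA1 and siCtrl (top), the others that passed between siSNRPB and siCtrl (middle), and those that passed only between the knockdowns (bottom). In the top group the orange points mostly lie left of the grey ones, as in ITPK1 (0.95 to 0.49), and in the middle group blue points lie on both sides, as in MRPL42 (0.03) and MAPK7 (0.52).

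The knockdowns can be compared directly. Microexons were more often lower than higher in siSNRPA1 against siSNRPB, with 19 lower and 5 higher of 85 tested. These are 22.4% and 5.88%, against 6.38% and 8.28% of all 5082 tested exons, so more microexons passed as lower than as higher, and more exons in all passed as higher than as lower. That difference between microexons and all exons was not tested. The median difference was -0.03 for microexons and 0.00 for all tested exons. Exons of 31 to 60 nt, the next longer class, were lower in 13.4% and higher in 7.38% of 461 cases. With a level of at least 0.5 in siSNRPB, 13 of 42 microexons were lower, against 18.4% of exons of 31 to 60 nt and 8.79% of all exons over 30 nt.

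The 19 lower exons can be sorted by their calls against siCtrl, which use the reads of the same knockdown pools again. In 8 of them the exon also fell in siSNRPA1 against siCtrl: GOLGA4, IL18, ITPK1, JPT1, PLAU, PLSCR1, PTS and SUPT5H. In 7 others it rose in siSNRPB against siCtrl: DST, MAPK7, MEF2D, MTMR1, SFXN4, SPTAN1 and USO1. Of these exons, those of IL18, ITPK1, JPT1 and PLSCR1 could not be tested between siSNRPB and siCtrl. Those of MEF2D and SFXN4 could not be tested between siSNRPA1 and siCtrl. The same sorting was not made for longer exons. SFXN4 differed by -0.38 between the knockdowns with an adjusted p of 1.62e-07, and MEF2D by -0.25 with 1.13e-07, both by the exact test.

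The remaining 4 lower exons passed in neither comparison with siCtrl. ROBO1, a receptor for Slit guidance cues, had 23 inclusion reads against 23 exclusion reads at its 27 nt exon in siCtrl, 32 and 40 in siSNRPA1, and 33 and 15 in siSNRPB, with levels of 0.39, 0.34 and 0.61. INCENP, a scaffold of the chromosomal passenger complex, had levels of 0.11, 0.04 and 0.21 at a 12 nt exon, and ACOT9, a mitochondrial acyl-CoA thioesterase, had 0.67, 0.63 and 0.75 at a 27 nt exon. FLNA had 0.48, 0.32 and 0.52 at a 24 nt exon (chrX:154357251-154357274), with 440 inclusion reads against 39 exclusion reads in siCtrl, 341 and 45 in siSNRPA1, and 214 and 9 in siSNRPB. In FLNA the reads gave an adjusted p of 0.17 between siSNRPA1 and siCtrl by the exact test, whereas the difference in level in the authors' deposited table was -0.16. ACOT9, FLNA, JPT1 and PLAU did not pass by share of reads.

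The 5 exons higher in siSNRPA1 were those of MRPL42, MAX, PPP3CB and RPS24, which had fallen in siSNRPB, and of ACP1, a low molecular weight phosphatase. ACP1 had 106 inclusion reads against 27 exclusion reads at a 29 nt exon in siCtrl, 249 and 32 in siSNRPA1, and 94 and 36 in siSNRPB, with levels of 0.72, 0.84 and 0.64. Its adjusted p was 0.00104 between the knockdowns and 0.0658 between siSNRPA1 and siCtrl, both by the exact test.

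Both comparisons with siCtrl share that pool, so their calls are given side by side. Of the 20 microexons that fell in siSNRPA1, 11 were also tested in siSNRPB, where 3 fell (AP1B1, FIP1L1 and MAPK1IP1L) and 8 did not pass. Of the 9 that fell in siSNRPB all were tested in siSNRPA1, where the same 3 fell and 6 did not pass. None of the 8 that rose in siSNRPB rose in siSNRPA1, where 6 of them were tested. The same counts were not made for longer exons, so these counts show nothing particular to microexons. For AP1B1, FIP1L1 and MAPK1IP1L the knockdowns differed by 0.01, 0.05 and -0.07, with adjusted p of 1.0, 0.404 and 0.785 by the exact test, which does not show that the pools were alike.

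**Figure D4:**
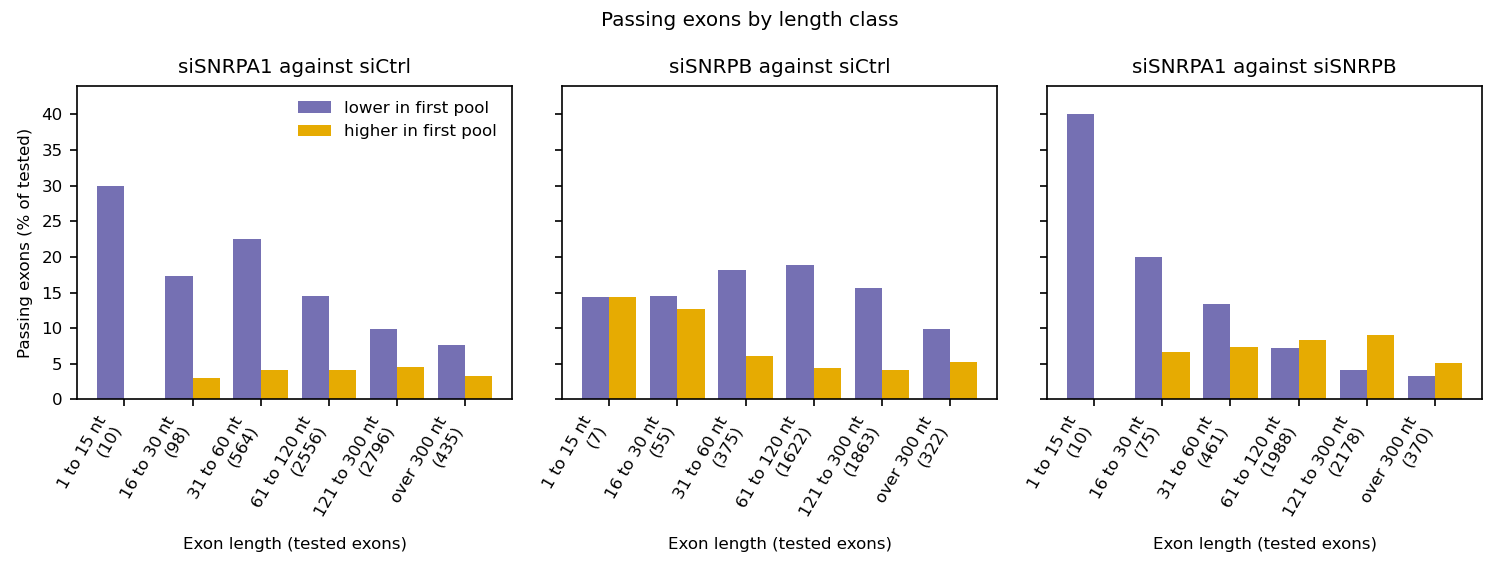
Share of tested exons that passed as lower (purple) or higher (yellow) in the first-named pool, in % (vertical axis), by exon length class with the number tested in brackets (horizontal axis), for the 3 comparisons. Microexons are the first 2 classes of each panel, and the classes of 1 to 15 nt hold only 10, 7 and 10 tested exons.

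Exons just inside and just outside the length limit were too few to tell apart. Of the 117 exons of 30 nt, 10 were tested between siSNRPA1 and siCtrl, where 1 fell and 0 rose, and of the 58 exons of 31 nt, 6 were tested, where 1 fell and 1 rose. Between siSNRPB and siCtrl, 1 of 6 and 1 of 3 fell.

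The most deeply covered microexons that passed in no comparison are given as a description, since not passing chose them. The 22 nt exon of RPS24, which fell in siSNRPB, was covered more deeply than these apart from that of PCBP2. RPL18, described above, could not be tested for want of exclusion reads, and its levels were 0.45 in siCtrl, 0.33 in siSNRPA1 and 0.40 in siSNRPB. LGALS1, which encodes galectin-1, has a 17 nt exon with 11 inclusion reads against 1446 exclusion reads in siCtrl, 23 and 1740 in siSNRPA1, and 16 and 696 in siSNRPB, with levels of 0.01, 0.01 and 0.02. UQCRH, a hinge protein of respiratory complex III, has a 27 nt exon with levels of 1.00, 0.98 and 0.98 and with 3, 25 and 7 exclusion reads beside 923, 1622 and 609 inclusion reads. C12orf75 has a 25 nt exon with 1239 inclusion reads against 0 exclusion reads in siCtrl, 861 and 19 in siSNRPA1, and 618 and 0 in siSNRPB. Its level went from 1.00 to 0.97 in siSNRPA1 with an adjusted p of 1.68e-06 by the exact test, a difference under 0.1 that does not count as a fall. The 30 nt exon of VEGFA, a growth factor of blood vessels, had 1285 and 0, 1845 and 6, and 325 and 0 reads and a level of 1.00 in each pool. RPL41, a ribosomal protein gene with processed copies, had 0, 26 and 12 exclusion reads beside 1205, 2192 and 867 inclusion reads at a 23 nt exon, with levels of 0.82, 0.87 and 0.86, so level and read share moved in opposite directions.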

How the data were processed

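RNA of 6 libraries of MDA-LM2 cells in 3 groups was deposited as 1 MISO summary per group and 2 tables of comparisons with siCtrl. The inclusion level is a fraction estimated by the authors, with an interval whose confidence level is not stated. The reads that fit each form are read counts written as text by the authors, and 0 columns of per-sample values were left unused. The difference in level (a score here) and the Bayes factor (a ratio) were deposited by the authors, and every deposited difference equals that of the summaries. The submitters' processing notes name STAR 2.7 and hg38, with no role. The MISO version, its settings and how libraries were pooled were not given in the sources used here. Total informative reads were 5201371, 7155107 and 3116325 for siCtrl, siSNRPA1 and siSNRPB.

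From these files, events were reduced to 1 per middle exon and annotated with GENCODE 29, in which 1082 of 1135 microexons match an exon exactly. Fisher's exact test was run per exon on informative reads in Python 3.11.15 with scipy 1.17.1, numpy 2.4.6, pandas 2.3.3 and matplotlib 3.10.9, adjusted over all tested exons, and was tested on simulated data. Intervals are 95% Wilson intervals, and a count of 0 allows 3 counts of the total. Named exons are those that passed in any comparison (at most 25 in each) and the 10 most deeply covered that passed in none. Other named exons were chosen after their values were seen. Printed sequences are the 16 passing coding exons with the largest difference. An exon of a gene in several functional lists counts in the first, and the neural list overlaps them. The lists do not hold every gene of their kind. The members and lists were chosen with earlier results of these data known. The alternatives tried were other read minimums, a larger difference, shares of reads in place of levels, all events, read counts divided by 2, thinned reads, the Bayes factor, a shorter length limit and, added after seeing the data, leaving out exons that match no annotated exon or that lie across from a gene of the opposite strand. Intron and splice site sequences were not used here.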

Additional observations from a re-analysis of the deposited data

How the results depend on the processing

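No result changed direction under any alternative run. Against 20 lower and 3 higher microexons in siSNRPA1 against siCtrl, there were 11 lower with a difference of at least 0.2, 8 lower and 0 higher with read counts divided by 2, 12 lower and 1 higher with thinned reads, and 1 higher with a minimum of 50 informative reads. Against 9 lower and 8 higher in siSNRPB against siCtrl, there were 5 lower and 3 higher with read counts divided by 2, 3 higher with a minimum of 50, and 5 higher with a difference of at least 0.2, with thinned reads or with the authors' Bayes factor of at least 10. Against 19 lower and 5 higher in siSNRPA1 against siSNRPB, there were 12 lower and 3 higher with a minimum of 50, 11 lower with a difference of at least 0.2, 7 lower and 3 higher with read counts divided by 2, 3 higher with thinned reads, and 3 higher among exons of at most 27 nt. Thinning, division and the stricter minimum leave fewer reads or exons to test, and the cause of the other changes was not tested. All other counts stayed within 1.5 times. The Bayes factor was not run between the knockdowns, for which no deposited comparison was used. No paired analysis was possible because each group has 1 deposited summary, and for the same reason no library could be left out. The shallow siSNRPB pool limits the comparisons that use it, with 62 and 85 microexons tested against 108.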
